A study of Mus musculus with 4 samples.

Results

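RNA-seq libraries of mouse CD4+ T cells carrying a Tox2 retrovirus and cultured in Tfh-like medium were set against cells carrying a GFP-only retrovirus and cultured in Th0 medium, to see what both changes made together. The comparison took 2 of the 4 libraries of the study, 1 library a side, joined gene by gene on the gene symbol, and 10960 of the 11027 genes listed were compared. The starting cells were naive CD4+ T cells of wild-type C57BL/6 mice (7 to 8 weeks old), taken from spleen together with lymph nodes. They were activated, infected in a neutral condition, sorted for GFP and only then split between the cultures, so every library came from virus-infected, GFP+ cells. Th0 medium blocked 3 cytokines with antibodies (IL-2, IL-4 and IFN-gamma), and Tfh-like medium held the same antibodies plus IL-6. Both sides therefore shared activation, infection, the sort and the cytokine blockade, and differed in IL-6 and in the Tox2 virus. The sources used here do not give the number of mice behind each library or the length of culture.

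T follicular helper (Tfh) cells are the CD4+ T cells that help B cells in germinal centres, and BCL6 is the transcription factor that defines them. IL-6 signals through its receptor and gp130 to STAT3, which induces Bcl6 and Il21 in activated CD4+ T cells but also genes of the Th17 program and the feedback inhibitor SOCS3. TOX2, which Tfh cells express, is a nuclear protein that binds DNA through an HMG box, as the other members of its family do.

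The 4 libraries held 13015283 (Th0 with GFP), 13518274 (Tfh-like with GFP), 13673774 (Th0 with Tox2) and 13562334 (Tfh-like with Tox2) counts over the genes listed, and values below are given in that order, as TMM-scaled CPM, the counts of a gene scaled to a common library size. With 1 library per group there was no replicate check: bracketed ranges are 95% intervals for counting error only, and no p-value between the conditions was taken from replicates. A gene was called 2-fold apart where its log2 fold (Tfh-like Tox2 over Th0 GFP) was 1 or more, or -1 or less, with an interval that did not include 0. A value followed by a bracketed range and no other name is this combined log2 fold. It was computed with a prior count of 2, which pulls in the folds of genes with few reads. The bracketed range was computed from the counts without that prior, so at few reads the value can lie off its centre. The 2 other libraries were used to give the steps that add up to each combined fold: the culture step (Tfh-like GFP over Th0 GFP) and the virus step (Tfh-like Tox2 over Tfh-like GFP). The steps share libraries with the combined fold, so they are given side by side and are not independent of it. Fewer cells of a type and less RNA per cell cannot be told apart in bulk libraries. Markers of CD4+ T cells were present on both sides: the 15 listed genes of T-cell identity, among them Cd4 (1284, 1105, 1750 and 1596 CPM) and Cd3e (353, 278, 363 and 309.9 CPM), summed to 8536, 8594, 8844 and 8972 CPM. Of these 15 genes none was 2-fold lower and 2 were 2-fold higher, the adhesion receptor Cd2 (198, 506, 191 and 539 CPM, 1.45 (1.38 to 1.51)) and the receptor zeta chain Cd247 (123, 129, 235 and 286 CPM, 1.21 (1.13 to 1.29)). Of all genes compared 3.55% were 2-fold lower and 8.78% 2-fold higher, and the counts for these 15 genes lie near those shares. Of 12 B-cell markers only Cd79a and Ebf1 were listed, and of 15 macrophage and monocyte markers 4 were listed, with a sum of 11.2 CPM in Th0 with GFP and 15.2 CPM in Tfh-like with Tox2.

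Between the 2 libraries, 962 genes were 2-fold higher in Tfh-like Tox2 (8.78% of genes compared) and 389 were 2-fold lower (3.55%). Together 1351 genes were 2-fold apart (12.3%), and 7114 genes (64.9%) lay within 0.5 of equality on the log2 scale. Larger differences were mostly upward: 292 genes called higher and 70 called lower were at least 4-fold apart, and 38 and 8 at least 16-fold. The median log2 fold of all genes was 0.02. An additive model of culture and virus over all 4 libraries (edgeR's quasi-likelihood test, Benjamini-Hochberg adjusted p under 0.05, 1 residual degree of freedom) passed 2286 genes (20.9%), 1297 of them higher (11.8%) and 989 lower (9.02%), and 1075 of the 1351 called genes passed it in the same direction. The same model in DESeq2 passed 1289 of 10747 genes (12.0%). That model takes the departure from additivity as its error, since no group had a second library. It was fitted to libraries that include the 2 compared, so the overlap of 1075 genes is not an independent check.

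**Figure D1:**
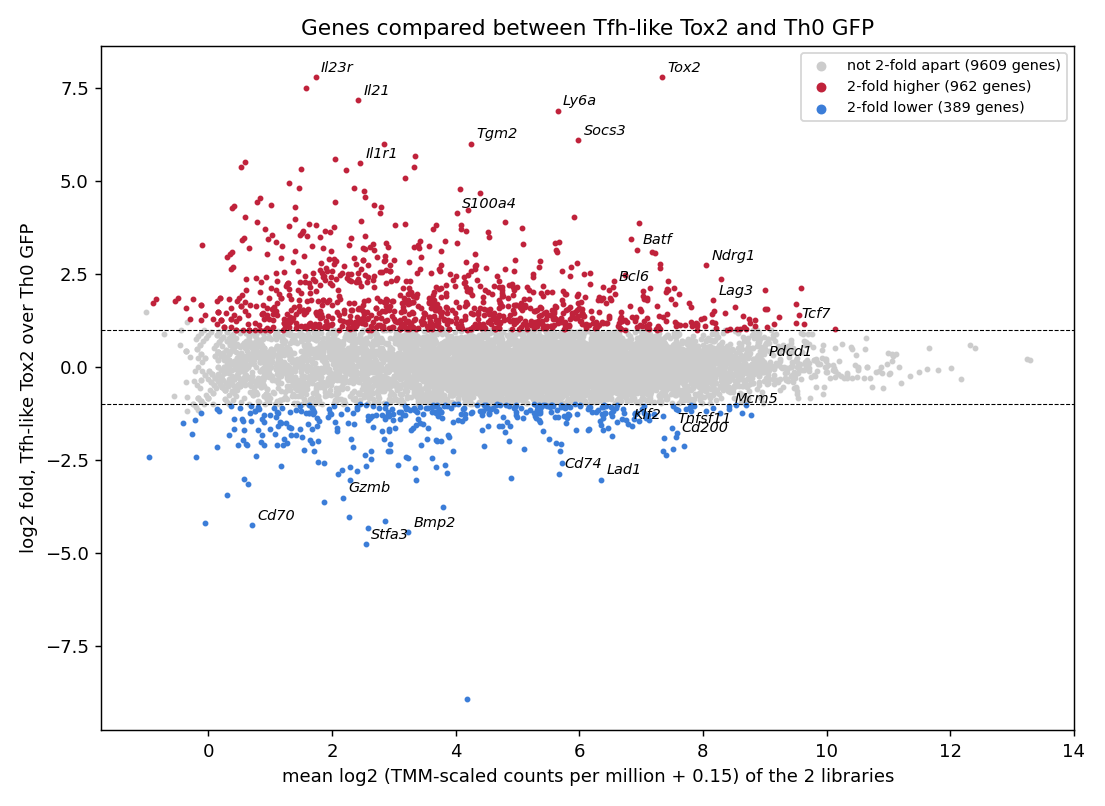
Each point is a gene compared, with its mean log2 level in the 2 libraries on the x axis and its log2 fold (Tfh-like Tox2 over Th0 GFP) on the y axis. The 962 genes 2-fold higher reach above 7 on the log2 scale. Of the 389 genes 2-fold lower, the predicted gene Gm10800 stands apart at -8.93, and the next is Stfa3 at -4.76.

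With the prior count of 2, Tox2 and Il23r had the highest log2 folds of all genes compared. By plain ratio, Il23r (664) and Cdh17 (536) were above Tox2 (225). The Tox2 gene (chr2:163203125-163324170, plus strand, build GRCm38) had 144, 851, 35297 and 32246 counts, or 10.7, 65.2, 2541 and 2409 CPM. Both libraries with the Tox2 virus were far above both libraries with GFP, and the Tfh-like GFP library was above the Th0 GFP library. The combined log2 fold was 7.79 (7.58 to 8.06), a ratio of 225, made of a culture step of 2.59 and a virus step of 5.2. The virus in Th0 medium gave 7.87, and the culture with the Tox2 virus on both sides gave -0.08. The counts do not separate viral from endogenous Tox2 reads. In FPKM, which takes gene length into account, Tox2 was at 571 in Tfh-like Tox2, above Ly6a at 365, Tcf7 at 334 and Mt1 at 308. The genes set beside it are examples and not a ranking of all genes, and FPKM does not separate viral from endogenous reads either. The related Tox gene was at 108, 64.3, 109 and 70.9 CPM and Tox4 at 161, 178, 184 and 180.4 CPM, neither of them 2-fold apart (-0.61 (-0.73 to -0.49) and 0.17 (0.08 to 0.25); both were chosen after their values were seen).

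Genes of the Tfh program went both ways. Of 26 members compared, 8 were 2-fold higher and 4 were 2-fold lower, against 8.78% and 3.55% of all genes. These shares are the background of every list below. For counts passed by edgeR's additive model the background is 11.8% higher and 9.02% lower. EdgeR's additive model passed 10 of the 26 members higher and 9 lower. The median log2 fold over the list was 0.08. The members that were higher included the lineage factor, the follicle-homing receptor and the signature cytokine. Bcl6, the repressor that defines Tfh cells, was at 44, 74.8, 125 and 197 CPM. It was lowest in Th0 GFP and highest in Tfh-like Tox2, with each single change in between. Its combined log2 fold was 2.16 (2.03 to 2.29), from a culture step of 0.77 and a virus step of 1.39. Cxcr5, the receptor for the B-cell follicle chemokine CXCL13, was at 7.89, 11.5, 35.1 and 38.4 CPM. Both Tox2 libraries were above both GFP libraries, and its combined log2 fold was 2.26 (1.98 to 2.6). Tcf7, which encodes TCF-1, was at 483, 487, 1051 and 1088 CPM, again with the libraries split by virus, and its log2 fold was 1.17 (1.13 to 1.21). Its culture step was 0.01 and its virus step 1.16.

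Il21, Maf and Ascl2 were split by culture instead. Il21, the Tfh cytokine that acts on germinal-centre B cells, had 4, 1015, 2 and 863 counts. Both Tfh-like libraries were above both Th0 libraries, where 4 and 2 reads were counted, and the combined log2 fold was 7.18 (6.4 to 9.64) with a virus step of -0.27. Maf, a transcription factor that drives Il21, was at 15.9, 99.7, 5.18 and 90.3 CPM with a log2 fold of 2.49 (2.29 to 2.72). The Th0 Tox2 library was the lowest for Maf, below Th0 GFP. Ascl2, a bHLH factor that promotes Cxcr5, was at 1.71, 11.2, 3.02 and 10.6 CPM with a log2 fold of 2.53 (1.99 to 3.34). Batf, an AP-1 family factor needed for Tfh and Th17 cells, was at 41, 182, 42.3 and 365 CPM. Its level in Th0 medium was alike with either virus and its highest level was in Tfh-like Tox2, where the log2 fold was 3.15 (3.03 to 3.28) and the virus step 1.0. Cxcr4, the receptor that holds cells in the germinal centre dark zone, had a log2 fold of 1.95 (1.83 to 2.08).

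The 4 members on the lower side were Btla, Cd200, Dusp6 and Id3. Btla, an inhibitory receptor of Tfh cells, was at 319, 136, 195 and 85.1 CPM, with a log2 fold of -1.9 (-2.0 to -1.81). Cd200, another surface marker of Tfh cells, was at 363, 241, 179 and 98.3 CPM, with -1.88 (-1.97 to -1.8). For both genes Tfh-like Tox2 was the lowest library and Th0 GFP the highest. Dusp6, an ERK phosphatase, had -1.66 (-1.79 to -1.53), and Id3, an inhibitor of E proteins, -1.47 (-1.6 to -1.34). Among markers that were not 2-fold apart, Pdcd1, which encodes PD-1, was at 477, 234, 705 and 526 CPM. Its combined log2 fold of 0.14 (0.09 to 0.19) was made of a culture step of -1.03 and a virus step of 1.17, of opposite sign. Icos, the costimulatory receptor of Tfh cells, had 0.27 (0.18 to 0.36), and Lef1, the relative of TCF-1, 0.33 (0.26 to 0.40).

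**Figure D2:**
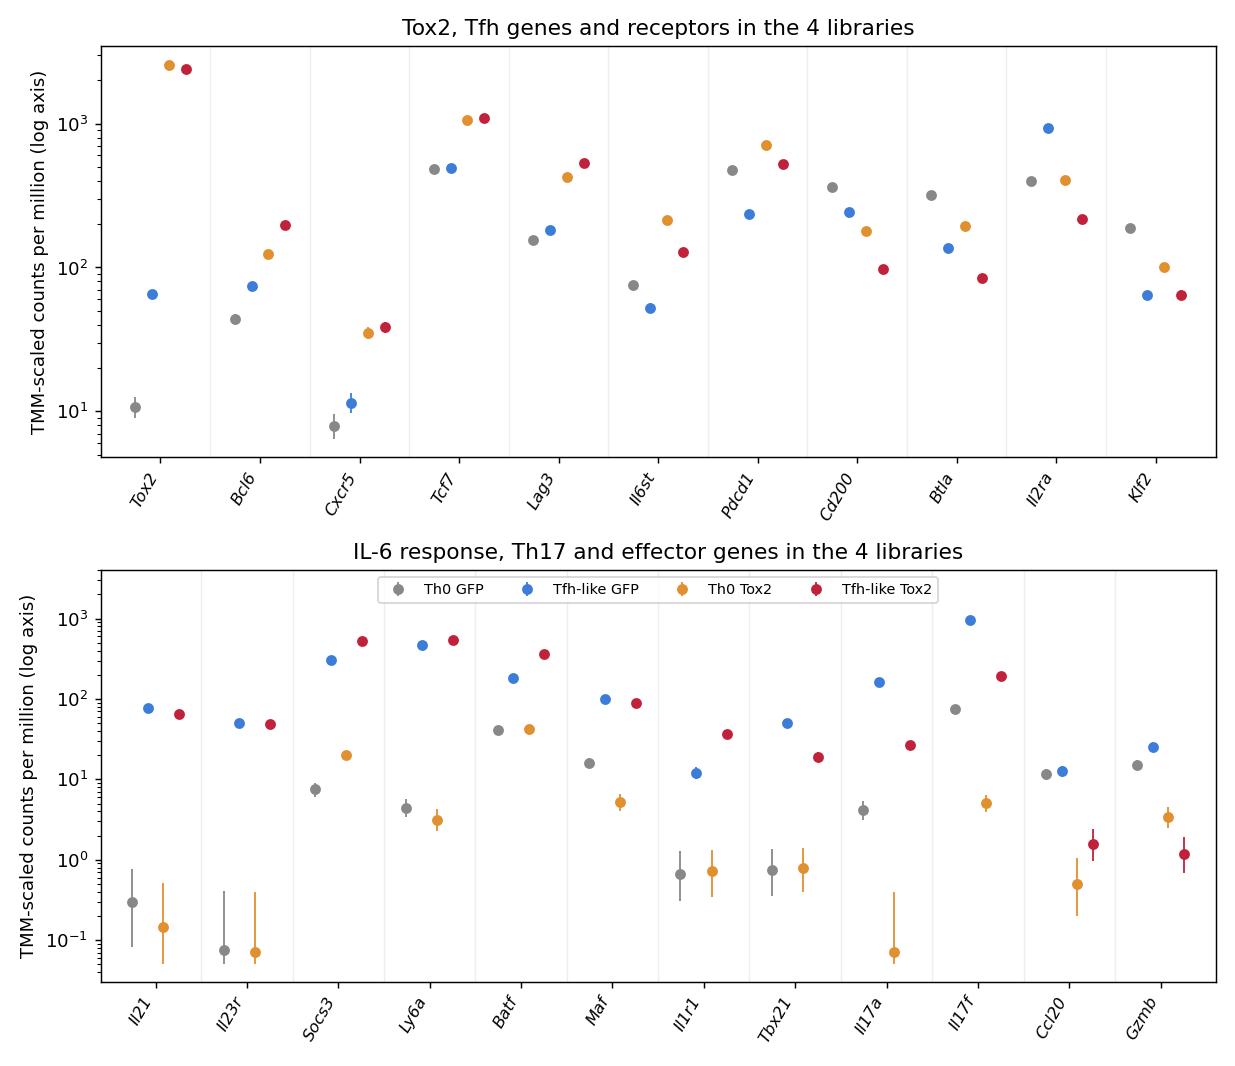
TMM-scaled CPM on a log axis for 23 genes in the 4 libraries, with 95% counting intervals as bars and lower ends under 0.05 CPM drawn at 0.05. Tox2, Cxcr5, Tcf7 and Lag3 separate by virus, Il21, Il23r, Socs3 and Ly6a separate by culture, and Bcl6, Batf and Il1r1 are highest in the library with both changes.

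Genes known to oppose the Tfh fate were not lower as a group: of 17 compared, 6 were 2-fold higher and 2 were 2-fold lower, with a median log2 fold of 0.64. Id2, an inhibitor of E proteins that restrains Tfh cells, was at 64.3, 305, 37.6 and 263 CPM and had a log2 fold of 2.03 (1.93 to 2.14). Runx3, a factor of cytotoxic and Th1 cells, was at 82.4, 399, 105 and 354 CPM, with 2.1 (2.01 to 2.2), and Runx2 had 1.72 (1.52 to 1.94). For these 3 genes the 2 Tfh-like libraries were above the 2 Th0 libraries and the virus step was small (-0.21, -0.17 and -0.04). S1pr1, the receptor that lets T cells leave lymphoid tissue, had 1.27 (1.16 to 1.38). Il7r, the receptor for the survival cytokine IL-7, had 1.13 (1.0 to 1.27), a call that the additive edgeR model did not pass (adjusted p = 0.0676). On the other side, Klf2, a factor that keeps T cells recirculating and represses Tfh differentiation, had 2542, 843, 1389 and 868 counts, with the highest level in Th0 GFP and a log2 fold of -1.54 (-1.66 to -1.43). Ptger4, a prostaglandin E receptor, had -1.49 (-1.68 to -1.31). Prdm1, which encodes the BCL6 antagonist BLIMP-1, was low in all libraries with 15, 20, 9 and 29 counts, and its log2 fold of 0.87 (0.01 to 1.96) was not called. Il2ra, the IL-2 receptor alpha chain, was at 402, 935, 402 and 217 CPM: highest in Tfh-like GFP and lowest in Tfh-like Tox2. Its culture step of 1.22 and virus step of -2.11 left a combined log2 fold of -0.89 (-0.95 to -0.82).

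Genes of the IL-6 and STAT3 response were mostly higher. Of 28 compared, 16 were 2-fold higher and 2 were 2-fold lower, with a median log2 fold of 1.33 against 0.02 for all genes. This list, like the others, was written with earlier results of these data known, so its counts and median describe its members only. Socs3, the feedback inhibitor that STAT3 induces at gp130, was at 7.51, 307, 19.9 and 525 CPM. Both Tfh-like libraries were far above both Th0 libraries, and with either medium the Tox2 library was the higher of the pair. Its combined log2 fold was 6.1 (5.84 to 6.42), a ratio of 69.8, from a culture step of 5.33 and a virus step of 0.77. Bcl3, an IkB-family coactivator, was at 34.7, 314, 57.8 and 375 CPM, with 3.43 (3.3 to 3.57). Stat3 itself was at 402, 1214, 709 and 1307 CPM, with 1.7 (1.66 to 1.75), and Socs1, which restrains JAK kinases, at 42.2, 122, 35.9 and 148 CPM, with 1.81 (1.67 to 1.95) (Bcl3 and Stat3 were chosen after their values were seen). Ly6a, a GPI-anchored surface protein known as Sca-1, was at 4.46, 475, 3.17 and 546 CPM, with 6.89 (6.57 to 7.33). Timp1, a metalloprotease inhibitor, was at 1.41, 209, 0.288 and 52.7 CPM. Its level in Tfh-like Tox2 was well below that in Tfh-like GFP, with a virus step of -1.99, and its combined log2 fold was 5.08 (4.57 to 5.96). Of the receptor itself, Il6ra was at 109.6, 134, 68.3 and 103 CPM (-0.09 (-0.20 to 0.02)) and Il6st, which encodes gp130, at 75.5, 52.4, 215 and 128 CPM (0.76 (0.64 to 0.87)). Il6st was above its GFP partner in both Tox2 libraries, with virus steps of 1.51 in Th0 and 1.28 in Tfh-like medium. The 2 members on the lower side were Tnfrsf1b, a TNF receptor (-1.46 (-1.57 to -1.36)), and Socs2, a feedback inhibitor induced by STAT5 (-1.37 (-1.91 to -0.92)), and the additive edgeR model did not pass Socs2 (adjusted p = 0.0735).

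Promoters are shown for 4 genes that were higher, because they hold the letters that STAT proteins or hypoxia-inducible factors are known to bind. They are 250 bases before the start that RefSeq gives, read 5′ to 3′ on the gene's strand, from RefSeq on GRCm38.p6, and were chosen after the values were seen. Capitals mark a match to TTCNNNGAA in the first 3 and to ACGTG in the fourth. Socs3 lies at chr11:117969367-117969616 (minus strand) with its match 154 bases before the start, and Il12rb2 at chr6:67376189-67376438 (minus strand) with its match 123 bases before. Bcl6 is shown at chr16:23988853-23989102 (minus strand) with a match 118 bases before the start. Another RefSeq window of Bcl6, at chr16:23981284-23981533, holds 3 matches and is not shown. P4ha2, described with the hypoxia genes below, lies at chr11:54100674-54100923 (plus strand) with its match 78 bases before. For Socs3 and P4ha2 the GENCODE gene model starts further upstream, so these windows lie inside it.
Socs3: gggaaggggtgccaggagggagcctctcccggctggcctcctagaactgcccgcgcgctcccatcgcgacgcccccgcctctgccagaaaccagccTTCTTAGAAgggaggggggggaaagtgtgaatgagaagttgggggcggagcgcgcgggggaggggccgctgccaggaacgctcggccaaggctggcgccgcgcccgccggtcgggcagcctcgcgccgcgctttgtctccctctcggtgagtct
Il12rb2: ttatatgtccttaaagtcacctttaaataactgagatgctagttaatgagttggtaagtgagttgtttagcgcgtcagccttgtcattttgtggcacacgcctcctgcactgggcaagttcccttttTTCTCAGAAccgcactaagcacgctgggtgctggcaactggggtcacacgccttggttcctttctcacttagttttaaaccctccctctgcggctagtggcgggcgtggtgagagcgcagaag
Bcl6: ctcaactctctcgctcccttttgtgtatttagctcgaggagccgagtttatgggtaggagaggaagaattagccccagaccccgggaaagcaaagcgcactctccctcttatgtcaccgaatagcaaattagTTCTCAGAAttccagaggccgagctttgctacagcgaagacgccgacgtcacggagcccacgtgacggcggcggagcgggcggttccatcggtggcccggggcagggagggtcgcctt
P4ha2: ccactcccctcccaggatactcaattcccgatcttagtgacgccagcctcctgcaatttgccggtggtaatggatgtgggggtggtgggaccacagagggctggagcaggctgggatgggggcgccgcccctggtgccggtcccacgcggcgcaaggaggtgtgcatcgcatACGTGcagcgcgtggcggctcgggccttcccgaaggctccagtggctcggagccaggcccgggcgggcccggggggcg
Promoter windows of 300 bases (250 before to 50 after the start) were searched on both strands, and TTCNNNGAA reads the same on both. TTCNNNGAA was found for 716 of the 8829 genes compared that have a promoter entry (8.11%). It was found for 4 of the 13 IL-6 and STAT3 genes that were 2-fold higher and have an entry (Socs3, Icam1, Il12rb2 and Cish), and for 1 of the 9 genes with an entry among the 15 highest (Socs3), as for 1 of the 9 with an entry among the 15 lowest (Gzmb). Tnfrsf1b, a 2-fold lower member of the same list, held TTCCCGGAA 181 bases before its start. Mcm5, 2-fold lower as well, held TTCTCCGAA 239 bases before its own. The IL-6 and STAT3 list holds known STAT3 targets, so its share describes the list. A match is a run of letters and was not shown to be bound in these cells.

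The Th17 program, which IL-6 is known to start, had the highest median of the 19 lists plotted below. Some lists not plotted had higher medians, such as the Ly6 family with 2.36 over 7 genes compared. In the Th17 program the values were as follows. Of 20 members compared, 13 were 2-fold higher and 2 were 2-fold lower, and the median log2 fold was 1.84. Il23r, the IL-23 receptor chain that stabilises Th17 cells, had 1, 657, 1 and 661 counts. It was nearly silent in both Th0 libraries, and the ratio of Tfh-like Tox2 to Th0 GFP was 664 (119 to 26261), with a virus step of -0.03. Il1r1, the receptor for IL-1, was at 0.67, 12, 0.72 and 36.4 CPM and was highest in Tfh-like Tox2. Its log2 fold was 5.48 (4.83 to 6.9), from a culture step of 3.9 and a virus step of 1.59. The decoy receptor Il1r2 was at 3.27, 18.2, 4.61 and 44.9 CPM in the same order of libraries, with 3.72 (3.34 to 4.25).

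Cytokine genes of this program followed another pattern. Il17a was at 4.17, 163, 0.072 and 26.5 CPM: highest in Tfh-like GFP, lower in Tfh-like Tox2 and at 1 read in Th0 Tox2. The combined log2 fold of 2.63 (2.26 to 3.1) was made of a culture step of 5.24 and a virus step of -2.61. The additive model passed Il17a in edgeR (adjusted p = 0.00519) but not in DESeq2 (adjusted p = 0.416). Il17f, its neighbour and relative, was at 75.7, 973, 5.04 and 194 CPM with the same order of libraries, and had 1.35 (1.25 to 1.46) (chosen after its values were seen). Ccl20, the ligand of CCR6 made by Th17 cells, was at 11.6, 12.6, 0.504 and 1.57 CPM. Both Tox2 libraries were below both GFP libraries, and the log2 fold was -2.77 (-3.62 to -2.22). Csf2, which encodes GM-CSF, was low throughout at 4.61, 3.52, 2.3 and 1.2 CPM, with -1.82 (-2.84 to -1.14), and was not passed in DESeq2's additive model (adjusted p = 0.232). Rora, a nuclear receptor active in Th17 cells, was at 43.6, 132, 76.4 and 184 CPM, with 2.07 (1.94 to 2.21) (chosen after its values were seen). Sgk1, a kinase of IL-23 receptor signalling, had 2.9 (2.33 to 3.83).

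Th1 and cytotoxic genes split in both directions. Of 21 compared, 7 were 2-fold higher and 6 were 2-fold lower, with a median log2 fold of -0.23. Of 10 NK-cell markers 3 were listed (Nkg7, Eomes and Klri2), none of them 2-fold apart, with sums of 34.7, 67.6, 32.5 and 27.1 CPM and a median of -0.79; Nkg7 and Eomes are in the Th1 and cytotoxic list too, and the part of NK cells was not tested. Tbx21, which encodes the Th1 factor T-bet, was at 0.744, 50.3, 0.792 and 19.1 CPM and had 4.43 (3.78 to 5.76). Il12rb2, the inducible chain of the IL-12 receptor, was at 0.818, 125, 1.58 and 26.8 CPM and had 4.8 (4.18 to 6.05), with an adjusted p of 0.0519 in DESeq2's additive model. Both genes were under 2 CPM in Th0 medium, highest in Tfh-like GFP and lower with the Tox2 virus (-1.39 and -2.22). Cxcr3, a chemokine receptor of Th1 cells, was at 19.6, 99.6, 7.49 and 60.7 CPM, with 1.62 (1.43 to 1.83). Prf1, the pore-forming protein perforin, was at 2.01, 35.3, 3.31 and 30.3 CPM, with 3.82 (3.35 to 4.54), and Ctsw, a cathepsin of cytotoxic cells, had 3.33 (2.87 to 4.02).

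Gzmb, the serine protease of cytotoxic granules, went the other way, at 15.2, 25.5, 3.38 and 1.2 CPM. Both Tox2 libraries were below both GFP libraries, and Tfh-like Tox2 was the lowest. The combined log2 fold was -3.51 (-4.5 to -2.93), 12.7-fold lower, from a culture step of 0.74 and a virus step of -4.25. Fasl, the death ligand, was at 38.9, 9.11, 15.5 and 5.3 CPM, with -2.84 (-3.25 to -2.51). The chemokines Ccl4 (26, 12.2, 11.8 and 3.81 CPM), Ccl3 (17.2, 19.5, 15.1 and 5.23 CPM) and Ccl5 (6.7, 2.14, 6.84 and 2.69 CPM) were lower, with log2 folds of -2.72, -1.69 and -1.27. Ccl3 was not passed by the additive edgeR model (adjusted p = 0.107), nor Ccl5 by that of DESeq2 (adjusted p = 0.330). Serpinb6b, a protease inhibitor, was just past the threshold at -1.01 (-1.2 to -0.83). Of the Th2 genes, 8 were compared, 3 were higher and 1 was lower. Nfil3, a basic leucine zipper factor, was at 41.7, 154, 41.5 and 153 CPM, with 1.87 (1.74 to 2.01), and Gata3, the Th2 factor, at 59.7, 32.6, 82.2 and 54.7 CPM, with -0.13 (-0.27 to 0.02). Foxp3 was not analysed here. Of 17 regulatory T-cell genes 4 were higher and 3 lower. Fgl2, a secreted fibrinogen-like protein, was at 4.46, 16.5, 4.1 and 39.7 CPM, with 3.11 (2.76 to 3.56), and Ikzf2, which encodes Helios, at 8.78, 6.13, 129 and 36.6 CPM, with 2.04 (1.77 to 2.36). Helios was highest in Th0 Tox2, not in Tfh-like Tox2.

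**Figure D3:**
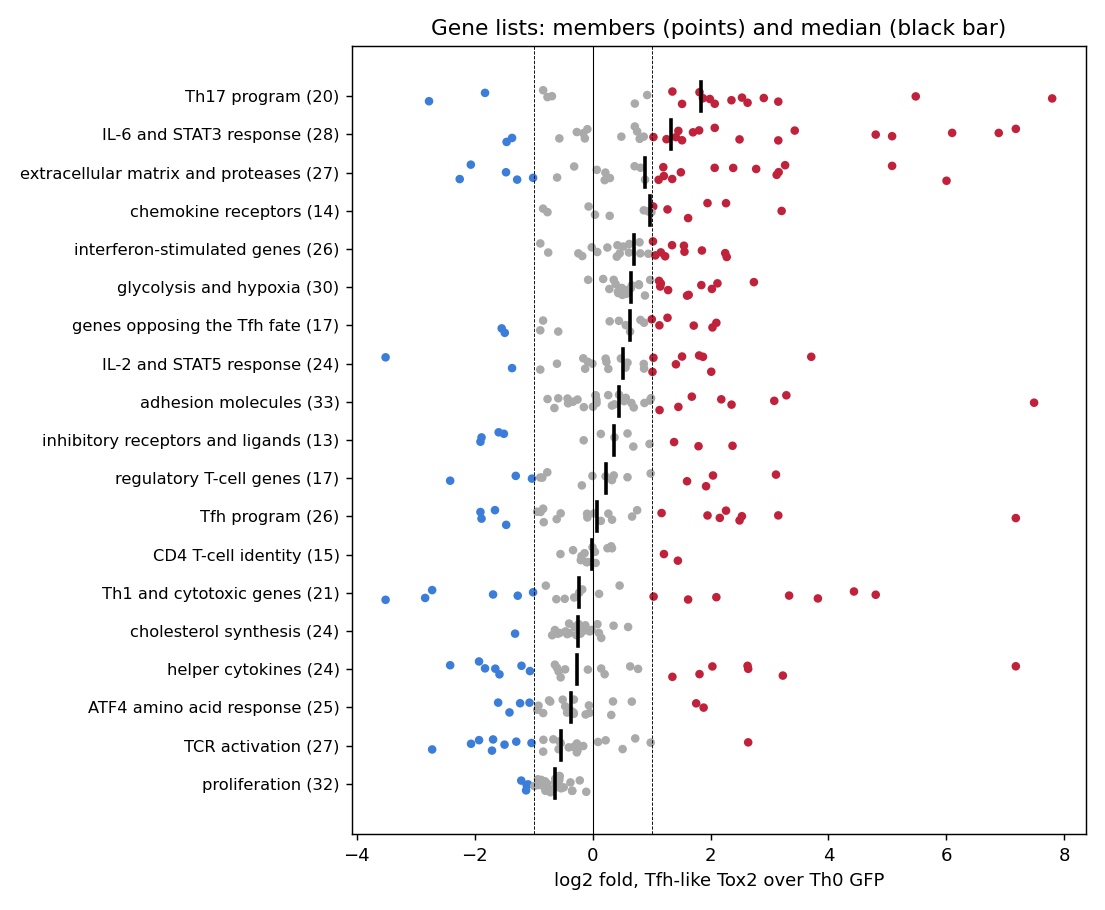
Log2 fold (Tfh-like Tox2 over Th0 GFP) of every compared member of 19 gene lists, with the number compared in brackets, the median as a black bar and the 2-fold limits dashed. The medians run from 1.84 for the Th17 program to -0.64 for proliferation genes.

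Among helper cytokines 7 of 24 were 2-fold higher and 7 were 2-fold lower, with a median log2 fold of -0.27. Beyond Il21 and Il17a, Tgfb3, a TGF-beta isoform, was at 3.12, 42.5, 4.39 and 30.5 CPM, with 3.23 (2.83 to 3.78), and Lif, a gp130 cytokine, at 26.2, 83.1, 19.4 and 108 CPM, with 2.03 (1.87 to 2.21); both were split by culture. Xcl1, the ligand of XCR1, was at 2.08, 2.3, 12.9 and 13.7 CPM, with 2.64 (2.14 to 3.35), and was split by virus. Il13, a Th2 cytokine, was at 0.298, 0.0766, 4.39 and 1.42 CPM, with 1.81 (0.66 to 4.27); its highest library was Th0 Tox2, and the additive edgeR model did not pass it (adjusted p = 0.0618). On the lower side, Il2 was at 13.8, 5.67, 9.36 and 3.51 CPM, with -1.93 (-2.46 to -1.5). Ebi3, a subunit of IL-27 and IL-35, was at 21, 10.8, 16 and 3.81 CPM, with -2.42 (-2.92 to -2.03). Tnfsf11, which encodes RANKL, was at 320, 109, 169 and 102 CPM, with -1.65 (-1.74 to -1.56), and Areg, an EGF receptor ligand, had -1.58 (-2.64 to -0.84), which DESeq2's additive model did not pass (adjusted p = 0.379). Th0 GFP was the highest library for Il2, Ebi3 and Tnfsf11, and Tfh-like Tox2 the lowest.

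Cytokine receptor genes were higher more often than lower: 9 of 31 against 1, with a median log2 fold of 0.42. In addition to Il23r, Il1r1, Il1r2 and Il12rb2, Il10ra, the IL-10 receptor chain, was at 4.54, 19.8, 10.2 and 16.9 CPM, with 1.86 (1.48 to 2.33). Il9r, the receptor for IL-9, was the member on the lower side, at 12.6, 1.23, 48.5 and 3.74 CPM: its culture step was -3.21, its virus step 1.5 and its combined log2 fold -1.71 (-2.24 to -1.29). Of 14 chemokine and related receptors 6 were higher and none was lower, with a median of 0.97. EdgeR's additive model passed 1 of them in the lower direction, against 9.02% of all genes.

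Inhibitory receptors and ligands went both ways. Of 13 compared, 3 were 2-fold higher (Cd200r1, Lag3 and Cd101) and 4 were 2-fold lower, of which Cd274, Pdcd1lg2 and Cd200 are ligands and Btla is a receptor. Lag3, a receptor for MHC class II, was at 154, 183, 426 and 536 CPM, with the 2 Tox2 libraries above the 2 GFP libraries and a log2 fold of 1.8 (1.73 to 1.87). Cd101, a surface glycoprotein, was at 16.7, 18.4, 49 and 43.9 CPM, with 1.38 (1.17 to 1.62), and Cd200r1, the receptor of CD200, at 1.26, 2.99, 1.8 and 7.17 CPM, with 2.37 (1.75 to 3.34). Cd274, which encodes the PD-1 ligand PD-L1, was at 93.1, 49.8, 52.4 and 32.7 CPM, with -1.5 (-1.67 to -1.35). Pdcd1lg2, the other PD-1 ligand, was at 45.2, 24.8, 18.3 and 14.9 CPM, with -1.59 (-1.84 to -1.37). Cd200r1 was not passed by DESeq2's additive model (adjusted p = 0.0674). Both ligands were highest in Th0 GFP and lowest in Tfh-like Tox2.

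Of 78 T-cell transcription factors compared, 27 were 2-fold higher and 9 were 2-fold lower, with a median log2 fold of 0.52. The 27 include Tox2 itself, which the virus carried, and genes already counted in lists above, such as Bcl6, Batf and Maf. Batf3, a relative of Batf, was at 0.298, 3.06, 0.36 and 3.29 CPM, with 2.94 (2.01 to 5.4) and an adjusted p of 0.0875 in DESeq2's additive model. Satb1, a chromatin organiser, was at 209, 832, 226 and 641 CPM, with 1.62 (1.56 to 1.68), and Ikzf4, which encodes Eos, at 23.4, 39.4, 71.3 and 71.4 CPM, with 1.6 (1.42 to 1.8). On the lower side, Nr4a3, an orphan nuclear receptor that T-cell receptor signals induce, was at 151, 43.4, 247 and 46 CPM, with -1.71 (-1.84 to -1.58). Zbtb32, a zinc finger repressor, was at 178, 106, 76.5 and 66 CPM, with -1.43 (-1.54 to -1.32), and Atf3, a stress-induced factor, at 3.05, 3.83, 1.66 and 0.598 CPM, with -2.1 (-3.66 to -1.24). The additive edgeR model did not pass Atf3 (adjusted p = 0.0994).

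Of 27 genes that T-cell receptor signals induce, 8 were 2-fold lower, 1 (Xcl1) was 2-fold higher and 18 were neither. Their median log2 fold was -0.54. EdgeR's additive model passed 11 lower and 3 higher, the latter near its 11.8% of all genes. Nr4a1 was at 529, 149, 734 and 258 CPM, with -1.04 (-1.1 to -0.98), and Egr3, another immediate-early factor, at 216, 68.6, 192 and 87.9 CPM, with -1.29 (-1.4 to -1.2) (both were chosen after their values were seen). The ERK-pathway inhibitors Dusp5 (107, 27.4, 168 and 25.5 CPM, -2.06 (-2.24 to -1.9)) and Spry1 (164, 70.5, 129 and 58.1 CPM, -1.49 (-1.62 to -1.38)) were lower as well. For Nr4a1, Nr4a3, Egr3, Dusp5 and Spry1 both Tfh-like libraries were below both Th0 libraries. Of 27 feedback inhibitors of cytokine and kinase signalling, 4 were higher (Socs3, Socs1, Dusp16 and Cish) and 5 were lower (Dusp5, Dusp6, Spry1, Socs2 and Spry4). Cish was just past the threshold at 1.03 (0.92 to 1.15), and Socs2 and Spry4 did not pass the additive edgeR model.

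Of 30 glycolysis and hypoxia genes 29 had a log2 fold above 0, 10 were 2-fold higher and none was 2-fold lower by counts (edgeR's additive model passed 18 higher and 0 lower), and the median was 0.66. Ndrg1, a hypoxia-induced gene, was at 103, 530.3, 268 and 685 CPM, with 2.74 (2.66 to 2.82). Slc2a3, the glucose transporter GLUT3, was at 368, 1606, 671 and 1595 CPM, with 2.12 (2.07 to 2.16). P4ha2, a prolyl hydroxylase of collagen, was at 21.9, 113, 24.3 and 89.4 CPM, with 2.02 (1.85 to 2.22). Vegfa, the vascular growth factor, had 1.84 (1.72 to 1.98), and Aldoc, a glycolytic aldolase, 1.63 (1.54 to 1.73). The 2 Tfh-like libraries were above the 2 Th0 libraries in all 5 genes. Ldha, the lactate dehydrogenase chain, was the exception, at 3651, 4135, 3221 and 3464 CPM and -0.08 (-0.09 to -0.06) (chosen after its values were seen). The letters ACGTG, the core that hypoxia-inducible factors recognise, were found on one or the other strand in the promoter windows of 21 of the 28 members with an entry (75.0%) and of 2649 of the 8829 genes compared (30.0%). As that list holds known targets of these factors, the difference describes the list.

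All 32 proliferation genes compared had a log2 fold below 0, with a median of -0.64, and 4 passed the 2-fold limit (edgeR's additive model passed 24 lower and 0 higher). Mcm2 (279.8, 168, 212 and 128 CPM, -1.13 (-1.21 to -1.05)) and Mcm5 (507, 316, 376 and 234 CPM, -1.12 (-1.18 to -1.06)), subunits of the replicative helicase, were among them. Tyms, which makes thymidylate, was at 113, 56.3, 75.2 and 48.6 CPM, with -1.21 (-1.35 to -1.08), and Cdc6, a replication licensing factor, at 79.2, 50.6, 60.6 and 37 CPM, with -1.09 (-1.25 to -0.94). For these 4 genes Th0 GFP was the highest and Tfh-like Tox2 the lowest library. Mki67, the proliferation antigen, was at 663, 525, 771 and 521 CPM, with -0.35 (-0.39 to -0.30) (chosen after its values were seen). Of 16 cell-cycle inhibitors and D cyclins, 2 were 2-fold higher, near the 8.78% of all genes. They were Gadd45g, a stress-induced growth regulator (14.4, 77.7, 12.2 and 64 CPM, 2.14 (1.93 to 2.39)), and Cdkn1b, which encodes p27 (2280, 3255, 3546 and 4557 counts, 1.0 (0.93 to 1.08)), the latter at the threshold.

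Interferon-stimulated genes were higher in 10 of 26 cases and lower in none by counts (edgeR's additive model passed 11 higher and 1 lower), with a median log2 fold of 0.71. The members with the largest folds were low in all libraries. Isg15, a ubiquitin-like protein, was at 0.67, 1.46, 1.66 and 3.81 CPM, with 2.27 (1.47 to 3.72). Oasl2, an oligoadenylate synthetase-like protein, was at 0.967, 0.689, 1.37 and 5.16 CPM, with 2.25 (1.55 to 3.39), and Ifit1, an RNA-binding effector, at 0.595, 0.919, 0.504 and 2.54 CPM, with 1.85 (0.96 to 3.42). All 3 were highest in Tfh-like Tox2, at 2.54 to 5.16 CPM, and Ifit1 did not pass the additive edgeR model (adjusted p = 0.0575). The additive DESeq2 model did not pass Isg15 or Oasl2 (adjusted p = 0.209 and 0.243) and gave no adjusted p for Ifit1. Ddx58, which encodes the RNA sensor RIG-I, was at 13.5, 31.2, 18.6 and 39.9 CPM, with 1.55 (1.31 to 1.81). The guanylate-binding protein gene Gbp7 had 1.56 (1.25 to 1.92), with reads that near-identical Gbp genes could share.

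Of 25 genes of the ATF4 amino acid response, 4 were lower and 2 higher, with a median log2 fold of -0.37. Cth, which makes cysteine, was at 46.6, 50.3, 12.2 and 15.2 CPM, with -1.6 (-1.85 to -1.38), and Asns, the asparagine synthetase, at 28.9, 35.5, 12.2 and 12.3 CPM, with -1.23 (-1.51 to -0.97). For both, the 2 Tox2 libraries were below the 2 GFP libraries. Phgdh, the first enzyme of serine synthesis, had -1.41 (-1.53 to -1.3). Trib3, a pseudokinase of the same response, was higher at 1.76 (1.51 to 2.04). In cholesterol synthesis 1 of 24 genes passed the limit, near the 3.55% of all genes that were lower: Idi1, an isomerase of isoprenoid units, at 145, 101, 106 and 58.1 CPM and -1.31 (-1.44 to -1.2), and the median was -0.25. Among 22 apoptosis genes 3 were higher and 4 lower. Pmaip1, which encodes NOXA, was at 17.5, 25.9, 29.6 and 55.5 CPM, with 1.66 (1.45 to 1.88), and Fas, the death receptor, at 13.7, 26, 12.7 and 38.6 CPM, with 1.48 (1.25 to 1.74). Bcl2l11, which encodes the death-promoting protein BIM, was at 353, 135, 356 and 103 CPM, with -1.78 (-1.87 to -1.69), and Bcl2l1, which encodes the survival protein BCL-XL, at 230.5, 175, 172 and 95.6 CPM, with -1.27 (-1.37 to -1.18).

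Extracellular matrix and protease genes were higher in 13 of 27 cases and lower in 5, with a median log2 fold of 0.89. Crispld2, a secreted glycoprotein, was at 0.744, 93.2, 0.216 and 57.1 CPM, with 6.0 (5.37 to 7.33). Fn1, fibronectin, was at 1.41, 32.9, 0.648 and 14.9 CPM, with 3.26 (2.71 to 4.16), and Serpinf1, a secreted serpin, at 16.4, 200.2, 8.49 and 148 CPM, with 3.16 (2.97 to 3.37). These 3 were highest in Tfh-like GFP. Col5a3, a collagen chain, was at 33.7, 27.6, 4.61 and 6.95 CPM, lower in both Tox2 libraries, with -2.25 (-2.62 to -1.95). Adhesion molecules were 2-fold higher in 8 of 33 cases and lower in none by counts (edgeR's additive model passed 11 higher and 1 lower). Cdh17, an intestinal cadherin, had 1, 1183, 6 and 534 counts, a ratio of 536 (95.8 to 21223). Itgb8, an integrin chain that activates latent TGF-beta, was at 3.2, 11, 25.8 and 32.5 CPM, with 3.29 (2.89 to 3.83): every change from Th0 GFP came with a higher level. Itga7, a laminin receptor chain, was at 49.4, 282, 112 and 419 CPM, with 3.08 (2.97 to 3.2), and Emb, embigin, at 139, 470.4, 185 and 713 CPM, with 2.36 (2.29 to 2.43). Both were highest in Tfh-like Tox2.

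Of 27 TGF-beta pathway genes 7 were higher and none lower (edgeR's additive model passed 11 higher and 0 lower), with a median log2 fold of 0.40. Ltbp3, a carrier of latent TGF-beta, was at 7.44, 24.4, 8.35 and 40.6 CPM, with 2.42 (2.14 to 2.77), and Lrrc32, the surface anchor GARP, at 6.25, 23.9, 9.0 and 24.1 CPM, with 1.92 (1.6 to 2.31). Smad3, a signal transducer of the pathway, was at 21.7, 100.4, 81.7 and 82.6 CPM, lowest in Th0 GFP and closer together in the other 3 libraries. Its log2 fold was 1.92 (1.74 to 2.12), which the additive edgeR model did not pass (adjusted p = 0.131). Among 22 Wnt pathway genes 6 were higher and none lower by counts (4 higher and 0 lower in the additive model). Dkk3, a secreted Dickkopf family member, was at 0.595, 0.919, 5.9 and 29.2 CPM, with 5.3 (4.62 to 6.84), and Cxxc5, a CXXC zinc finger protein, at 6.62, 2.83, 98.8 and 47.7 CPM, with 2.82 (2.53 to 3.18). Cxxc5 was higher in Th0 Tox2 than in Tfh-like Tox2. Of 28 TNF family ligands and receptors 7 were higher and 6 lower. Tnfrsf8, which encodes CD30, was at 4.54, 143, 1.22 and 61.1 CPM, with 3.71 (3.38 to 4.15), and Tnfrsf1a, a TNF receptor, at 23.2, 40.5, 48.7 and 94.4 CPM, with 2.02 (1.84 to 2.21). Cd70, the ligand of CD27, had 94, 23, 26 and 3 counts, a ratio of Th0 GFP to Tfh-like Tox2 of 31.2 (10.4 to 154).

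The 15 highest genes by rank also included metabolic and lysosomal genes. Tgm2, a transglutaminase, was at 2.23, 339.6, 14 and 152 CPM, with 6.0 (5.57 to 6.66), and Upp1, a uridine phosphorylase, at 0.446, 57.4, 0.216 and 28.6 CPM, with 5.59 (4.87 to 7.46). Both were highest in Tfh-like GFP. Mt2, a metallothionein, was at 1.26, 68.7, 3.17 and 72.4 CPM, with 5.68 (5.15 to 6.62), and its neighbour Mt1 at 32.6, 483, 44.8 and 476 CPM, with 3.86 (3.73 to 4.01) (Mt1 was chosen after its values were seen). Atp6v0d2, a subunit of the vacuolar proton pump, was at 1.41, 37.5, 0.72 and 64.5 CPM, with 5.37 (4.86 to 6.25), and was highest in Tfh-like Tox2. Ly6i, a relative of Ly6a, had 1, 96, 1 and 134 counts, a ratio of 135 (23.7 to 5355), with reads that near-identical Ly6 genes could share.

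On the lower side, Stfa3, a stefin, had 407, 2, 378 and 13 counts and a log2 fold of -4.76 (-5.88 to -4.17); near-identical stefin genes could share its reads. Bmp2, a bone morphogenetic protein, was at 43.7, 4.06, 12 and 1.87 CPM, with -4.44 (-5.19 to -3.97). Dapl1, a gene of naive T cells, was at 51, 6.89, 38.2 and 3.59 CPM, with -3.77 (-4.28 to -3.41). Lad1, ladinin, was at 234, 16.7, 172 and 28.4 CPM, with -3.04 (-3.2 to -2.89), and Trpa1, an ion channel, at 12.7, 0.383, 21.2 and 0.897 CPM, with -3.62 (-4.81 to -2.98). Cadm1, an adhesion molecule, was at 83.5, 14.8, 24.8 and 10.5 CPM, with -2.98 (-3.26 to -2.74). Th0 GFP was the highest library for Bmp2, Dapl1, Lad1 and Cadm1, while Trpa1 was highest in Th0 Tox2. Cd74, the MHC class II invariant chain, was at 138, 31, 70.3 and 18.7 CPM, with -2.88 (-3.08 to -2.69). Of the class II chains, H2-Eb1 was lower (6.62, 2.22, 7.2 and 1.57 CPM, -1.98 (-2.84 to -1.38)) and H2-Ab1 higher (104, 326, 95.8 and 280.2 CPM, 1.43 (1.34 to 1.52)), with reads that related H2 genes could share. DESeq2's additive model did not pass H2-Eb1 (adjusted p = 0.0903). The 6 dendritic-cell markers listed summed to 252 CPM in Th0 GFP and 309 CPM in Tfh-like Tox2. Most of both sums came from Cd74 and H2-Ab1, which went in opposite directions, so the sums do not show a steady level. The part of dendritic cells in these values was not tested. The defining markers Flt3, Clec9a and Siglech were not analysed here.

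In 58 genes (0.529%) the Tfh-like Tox2 library was at least 2-fold above each of the other 3 libraries, and in 22 (0.201%) it was at least 2-fold below each. S100a4, a calcium-binding protein of memory T cells, was at 3.72, 10.9, 6.91 and 67.5 CPM, with a combined log2 fold of 4.13 (3.77 to 4.62). Pcsk1, a prohormone convertase, was at 6.4, 16.2, 12.6 and 81.1 CPM, with 3.63 (3.35 to 4.0). For both, either change alone came with a smaller difference from Th0 GFP. Tgfbi, a secreted TGF-beta-induced protein, was at 0.298, 3.14, 0.144 and 17.6 CPM, with 5.32 (4.51 to 7.78). Erg, an ETS factor, was at 0.372, 0.919, 0.36 and 6.65 CPM, with 3.71 (2.88 to 5.82), and Grik4, a glutamate receptor subunit, at 0.521, 0.919, 0.504 and 10.3 CPM, with 3.97 (3.23 to 5.65). Grik4 and Erg were under 1 CPM in each of the other 3 libraries. Rdh1, a retinol dehydrogenase, was at 0.67, 1.76, 1.44 and 11.6 CPM, with 3.84 (3.15 to 5.27). Trhr2, a receptor for thyrotropin-releasing hormone, had 1, 15, 0 and 121 counts, a ratio of 122 (21.4 to 4839) to Th0 GFP, and Spon2, a secreted matrix protein, 2, 12, 3 and 78 counts, a ratio of 39.2 (10.5 to 329). Il1r1, Il1r2, Batf and Fgl2, described above, belonged to the 58 as well.

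Among the 22 genes on the lower side, Dagla, a lipase that makes the endocannabinoid 2-arachidonoylglycerol, was at 12.3, 11.9, 10.7 and 1.79 CPM: alike in the other 3 libraries and lower in Tfh-like Tox2, with -2.68 (-3.46 to -2.15). Pik3r5, a regulatory subunit of PI3-kinase gamma, was at 18.7, 17.5, 21.2 and 6.35 CPM, with -1.53 (-1.93 to -1.2), and Car2, a carbonic anhydrase, at 5.06, 4.83, 5.33 and 1.64 CPM, with -1.54 (-2.39 to -0.91). Both showed the same pattern as Dagla, Ccl3 (above) came close to it, and Krt83, a keratin, had 29, 28, 84 and 5 counts. The additive edgeR model, which has no term for both changes together, did not pass Dagla, Pik3r5, Car2, Krt83 and Ccl3 (adjusted p = 0.0986, 0.121, 0.155, 0.428 and 0.107). Ccl4, Ebi3, Gzmb, Cd70 and Dnah7a, an axonemal dynein (26.8, 2.91, 13.4 and 1.2 CPM, -4.32 (-5.31 to -3.77)), belonged to the 22 as well, as did Atf3 and Bmp2.

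**Figure D4:**
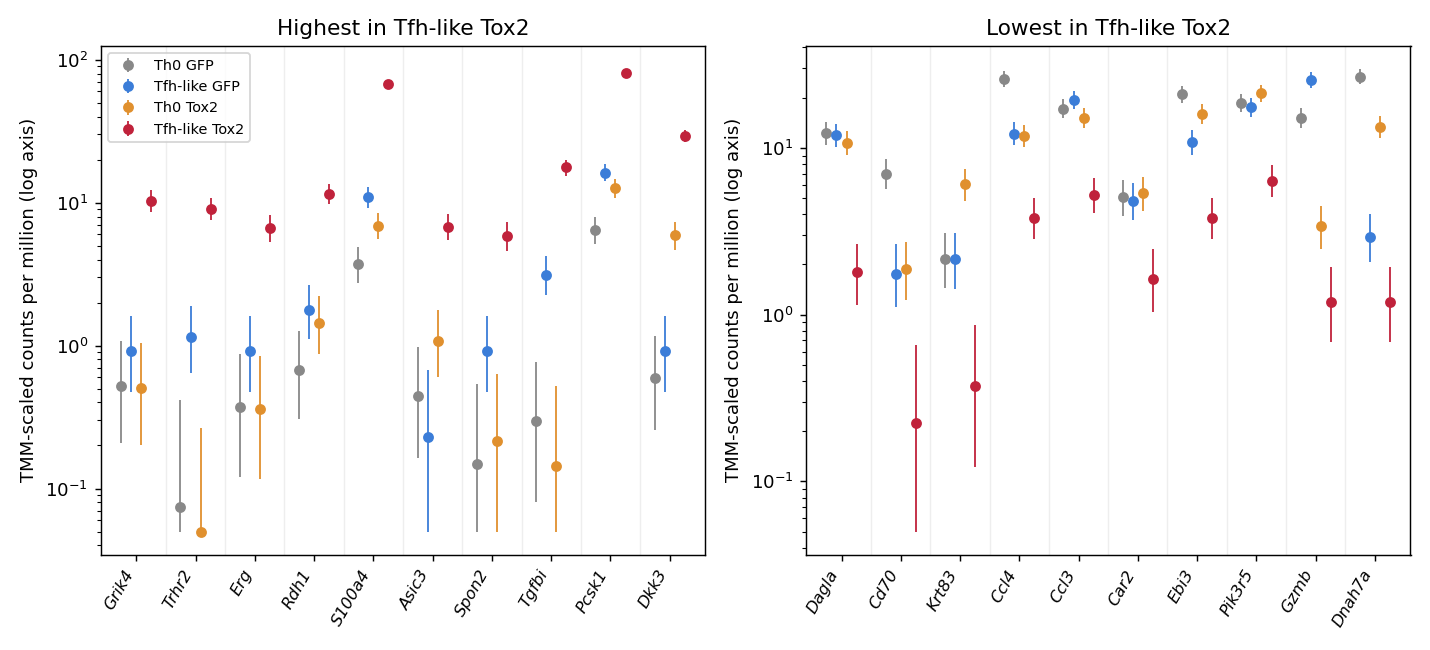
TMM-scaled CPM on a log axis of the 10 genes highest and the 10 lowest in Tfh-like Tox2 by distance from the nearest other library, with 95% counting intervals as bars; values of 0 and lower ends under 0.05 CPM are drawn at 0.05. Tfh-like Tox2 stands at least 2-fold from each of the other 3 libraries in all 20 genes.

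The size of each step over the genes called can be set beside the combined fold. For the 962 higher genes the median log2 fold was 1.55, with a median culture step of 1.35 and a median virus step of 0.21. For the 389 lower genes these were -1.30, -0.87 and -0.43. Taken in the other order, the virus in Th0 medium had medians of 0.45 and -0.54, and the culture with the Tox2 virus on both sides 1.12 and -0.81. Because each step shares a library with the combined fold by which the genes were called, these medians are a description. Individual genes spread widely around them. Cxcr5, Tcf7, Lag3, Xcl1 and Kit, a receptor tyrosine kinase (1.93, 1.53, 12.5 and 10.7 CPM, 2.38 (1.86 to 3.13)), had virus steps of 1.73, 1.16, 1.55, 2.51 and 2.69 beside culture steps of 0.53, 0.01, 0.25, 0.13 and -0.31. In a further set the steps were opposed and the combined fold was smaller in size than the culture step: Pdcd1, Il2ra, Il17a, Tbx21, Il12rb2, Timp1 and Cxcr3 as given above, and Spp1, osteopontin, at 21.1, 105, 3.74 and 24.3 CPM, with 2.31 and -2.1 leaving 0.20 (-0.03 to 0.44). Cdkn1a, which encodes the cell-cycle inhibitor p21, was at 182, 493, 112 and 235 CPM, with steps of 1.44 and -1.07 leaving 0.37 (0.30 to 0.45) (Spp1 and Cdkn1a were chosen after their values were seen).

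**Figure D5:**
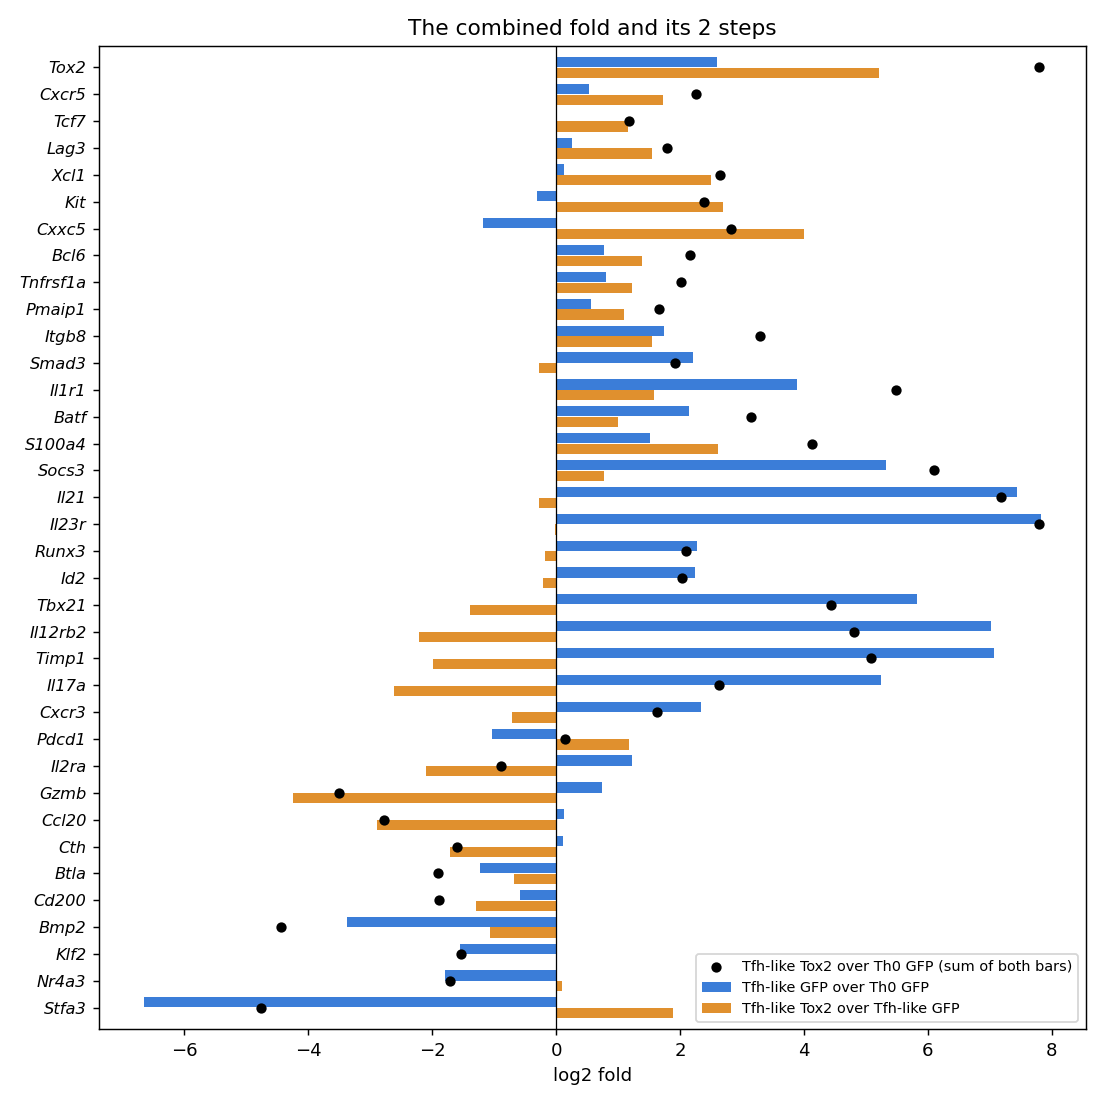
For 36 genes, the combined log2 fold (black point) with the culture step (blue bar, Tfh-like GFP over Th0 GFP) and the virus step (orange bar, Tfh-like Tox2 over Tfh-like GFP), which add up to it. Cxcr5, Tcf7 and Lag3 have the longer orange bar, Il21, Il23r and Socs3 the longer blue bar, and Pdcd1, Il2ra and Il17a have bars of opposite sign.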

How the data were processed

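Each of the 4 libraries has a deposited table of raw read counts by gene symbol, whole numbers with no normalization, per the file headers. The same tables hold the authors' FPKM, per the file headers. Per the submitters' processing notes the build was mm10 and the tools, with no role stated, were edgeR, featureCounts, Subread, Bowtie2, MACS2 and Trim Galore 0.4.4. The sources used here give neither the annotation nor the strand setting. The deposited lists had been reduced: each gene had at least 0.658 plain CPM in its second-highest library, so genes above that level in 1 library alone were not analysed here. The limit that a count of 0 allows is 3 counts, equal to 0.216 to 0.230 CPM by library. Columns of other samples numbered 0.

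TMM factors over the 4 libraries scaled the counts (edgeR 4.0.16, R 4.3.3; range 0.966 to 1.03). Genes with at least 1 CPM in 1 or more libraries were compared. The log2 fold used a prior count of 2. Its 95% interval, computed without the prior, is exact conditional binomial and covers counting error only. Reads were not collapsed by molecular identifiers as far as the sources say, so the intervals do not cover amplification. The additive model (culture plus virus) was fitted with edgeR's quasi-likelihood test and, as an alternative, DESeq2 1.42.0. The edgeR fit was tested on simulated counts that were additive by design, and the DESeq2 fit was not. Named genes were Tox2, the 15 highest and 15 lowest called genes at 5 CPM or more, the 10 genes each way that set Tfh-like Tox2 most apart from the other libraries, up to 5 called members each way of each of 38 gene lists, and 19 fixed genes; predicted genes were left out, and some genes under the rule are not reported here. The comparison, members and lists were chosen with earlier results of these data known. Coordinates are from GENCODE M21 on GRCm38 and promoters from RefSeq on GRCm38.p6. FPKM served for levels between genes and 1 alternative scaling.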

Additional observations from a re-analysis of the deposited data

How the results depend on the processing

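Counts, 187 named genes and 32 list medians were recomputed under 10 alternatives, and no called result changed sign. Of the list medians recomputed, 299 moved by less than 0.1 on the log2 scale and 20 by more. Those 20 kept their sign; with genes of at least 5 CPM the median of helper cytokines went from -0.27 to -0.08, and the Th17 median of 1.84 ranged from 1.53 with a prior count of 10 to 1.97 with 0.5. The counts of genes 2-fold apart, 962 higher and 389 lower, ranged from 771 to 1006 and from 314 to 487 under other scalings, priors, expression filters, removal of the length trend and the edgeR additive model. Under the DESeq2 additive model they were 592 higher and 243 lower. With a prior count of 10, 13 genes instead of 22 were lowest in Tfh-like Tox2. Scaling by the sum of listed counts moved the higher share of calls from 71.2% to 64.1% and the median of all genes from 0.02 to -0.04. Of the named genes, 20 lost their call in the edgeR additive model and 31 in the DESeq2 additive model, among the latter Il17a, Il12rb2 and Oasl2; the cause was not tested. Cish, Cdkn1b, Ccr4, Bik and Serpinb6b lie so near the threshold that 1 or more scalings ended their call. No paired analysis was possible because each group has 1 library. Leaving out a replicate was not possible for the same reason. Differences between libraries that come from mice, infection or preparation cannot be told apart from the conditions.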

Other observations

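Gm10800, a predicted gene left out of the ranks, had 5391, 21, 11 and 9 counts: it was high in the Th0 GFP library and near 0 in the other 3, with a log2 fold of -8.93 (-10.35 to -8.29). Mitochondrially encoded genes took 2.45% of counts in Th0 GFP and 2.16% in Tfh-like Tox2. Penk, which encodes the opioid precursor proenkephalin, was at 386, 80.8, 218 and 74 CPM, with -2.38 (-2.48 to -2.29), and Igfbp7, a secreted IGF-binding protein, at 361, 168, 179 and 74.6 CPM, with -2.27 (-2.37 to -2.18); both were highest in Th0 GFP and lowest in Tfh-like Tox2. Ebf1, a B-cell factor, was at 1.49, 29.1, 8.49 and 28.8 CPM, with 4.14 (3.63 to 5.0), while Cd79a, the other B-cell marker listed, was at 1.41, 0.766, 1.73 and 0.971 CPM. Lum, a proteoglycan of stromal cells, was at 0.744, 23.6, 0.144 and 10 CPM, with 3.51 (2.83 to 4.84), and Col1a1, a collagen chain, at 5.28, 13.5, 5.04 and 12.4 CPM, with 1.21 (0.82 to 1.65); the 6 stromal markers listed summed to 161 and 170 CPM in Th0 GFP and Tfh-like Tox2. Klf1, an erythroid factor, was low throughout at 0.595, 1.61, 1.08 and 2.09 CPM. Among interferon-stimulated genes outside the lists, Parp12 was at 1.93, 4.37, 4.82 and 15.2 CPM, with 2.88 (2.38 to 3.62), and Ddx60 at 1.71, 3.37, 2.52 and 8.37 CPM, with 2.2 (1.63 to 3.01), both highest in Tfh-like Tox2. DESeq2's additive model did not pass Ebf1 or Col1a1 (adjusted p = 0.0502 and 0.189), and neither tool's passed Klf1 (adjusted p = 0.0835 in edgeR). Penk, Igfbp7, Parp12 and Ddx60 were chosen after their values were seen.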
